A study of Saccharomyces cerevisiae with 26 samples.

Results

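The RNA of 38 genes for translation factors was followed through the yeast metabolic cycle in wild type and in a TAF14 mutant. The genes were taken by symbol: initiation factors with the poly(A)-binding protein and the helicase Ded1p, elongation factors, the eIF5A isoforms and the release factors. Of the 38 symbols, 37 had a row among the 6008 genes of the deposited RNA table, and HYP2, the aerobic eIF5A gene, is not analysed here. The cells were budding yeast of the prototrophic CEN.PK background, grown in continuous culture so that their oxygen use cycles. One set of groups is CEN.PK itself, called wild type. The other is CEN.PK TAF14[W81A], called the mutant, with alanine in place of tryptophan in the YEATS domain of Taf14p. That protein is a shared subunit of transcription and chromatin complexes, and its YEATS domain binds acylated histone lysines. Each genotype was sampled at time points 1 and 2 (early and late in the oxidative phase, OX), 3 and 4 (early and late in the reductive building phase, RB) and 5 (the reductive charging phase, RC). Replicates A and B at each point give 10 groups and 20 libraries. No source used here says whether A and B were separate cultures, or how many clones of the mutant were used, so p-values measure only the spread between these libraries. Histone H3 acetylated at lysine 9 (H3K9ac) was measured in CEN.PK at time points 3 and 4, with 1 library each.

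Translation begins when eIF2, carrying GTP and the initiator tRNA, joins eIF1, eIF1A, eIF3 and eIF5 on the small ribosomal subunit. The cap-binding complex eIF4F brings this assembly to an mRNA, it scans to the start codon, and eIF5B joins the large subunit. eEF1A then delivers each aminoacyl-tRNA, eEF2 moves the ribosome on, eEF3 (an ATPase of fungi) frees the exit site, and eRF1 with eRF3 releases the finished chain. Together with ribosomal proteins, these factors are among the most expressed genes of growing yeast, and in the metabolic cycle growth genes are known to peak in OX.

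The reads of the 2 libraries of a group were recovered from the deposited levels. For 23 of the 37 genes this was possible in all 10 groups, and for 12 in some. For TEF1 and TEF2 it was possible in none, so 35 genes were tested and these have only levels and the authors' deposited values. Over genes whose reads were fixed in every group, a library held 2019155 to 3743224 reads. The wild-type libraries of time point 1 stood apart: across genes they correlated at a Pearson r of 0.986 against 0.991 to 0.993 in the other groups, and the median SD between them was 0.175 (log2) over the 23 genes, against 0.034 to 0.087 elsewhere. TAF14 itself carries a point mutation, so its RNA does not check the labels; it was called higher in the mutant at time points 1 to 4, by 0.18 to 0.38 (log2). Levels are log2 values per gene length on the deposited scale and can be compared between genes. Library values are given in the order of time points 1 to 5, with the 2 libraries of a group on either side of a slash, and "mean" marks a pair that could not be separated. Changes are log2 differences of scaled reads ± SE from limma, with n = 2 libraries per group and 5970 genes tested. Each SE rests on 1 spread per gene over all its separated pairs, so it does not widen where the wild-type libraries of time point 1 stood apart. A gene was called at an adjusted p (Benjamini-Hochberg) under 0.05.

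In wild type, nearly the whole set was highest in early OX and sank through RB. The deposited level was highest at time point 1 for 36 of the 37 genes and lowest in RB for 33. All 35 tested genes changed over the 5 time points, as did 93.7% of all genes. From time point 1 to 2, 32 of 35 fell and none rose, where 75% of all genes were called, 40.7% lower and 34.3% higher, and their median change was -0.996 against -0.076 over all genes. From 2 to 3, 32 fell and 1 rose (66.4% of all genes called, 32.9% lower and 33.5% higher), with a median of -1.05. From 3 to 4 fewer steps were called: 10 fell and 1 rose (43.6% of all genes called, 20.8% lower and 22.8% higher), with a median of -0.12. Entering RC, 28 rose and 1 fell (61.6% of all genes called, 32.5% higher and 29.1% lower), with a median of 0.55. Of the 32, 33, 11 and 29 calls at these steps, 31, 31, 7 and 26 were also made without each single library in turn. A pair that could not be separated stayed whole in those fits. The level at time point 5 stayed under that of time point 1 for 36 of the 37. Because levels come from a whole culture, RNA lost from some cells and less RNA in every cell cannot be told apart.

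The mutant went through the same sequence with smaller later steps. All 35 changed over its cycle, beside 91.6% of all genes. From time point 1 to 2, 31 fell and none rose (72.6% of all genes called, 37.8% lower and 34.9% higher), and from 2 to 3, 28 fell and 2 rose (59.6% of all genes called, 30.2% lower and 29.5% higher), with medians of -0.94 and -0.63. From 3 to 4, 8 fell (23.7% of all genes called, 11.8% lower), but only 5 genes were called without library 2 of either point. In RC 19 rose and 4 fell (45.2% of all genes called, 24.4% higher and 20.7% lower), with a median of 0.21. Of the 31, 30, 8 and 23 calls at the mutant's steps, 30, 27, 5 and 17 were also made without each single library in turn. Upper-quartile scaling raised the median of all genes by 0.23 in wild type and 0.18 in the mutant between time points 1 and 2. It moved the share of higher calls among all calls from 45.7% to 58.9% and from 48.0% to 59.1%, while 31 and 29 of the translation factors fell and 1 rose in the respective genotype.

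**Figure D1:**
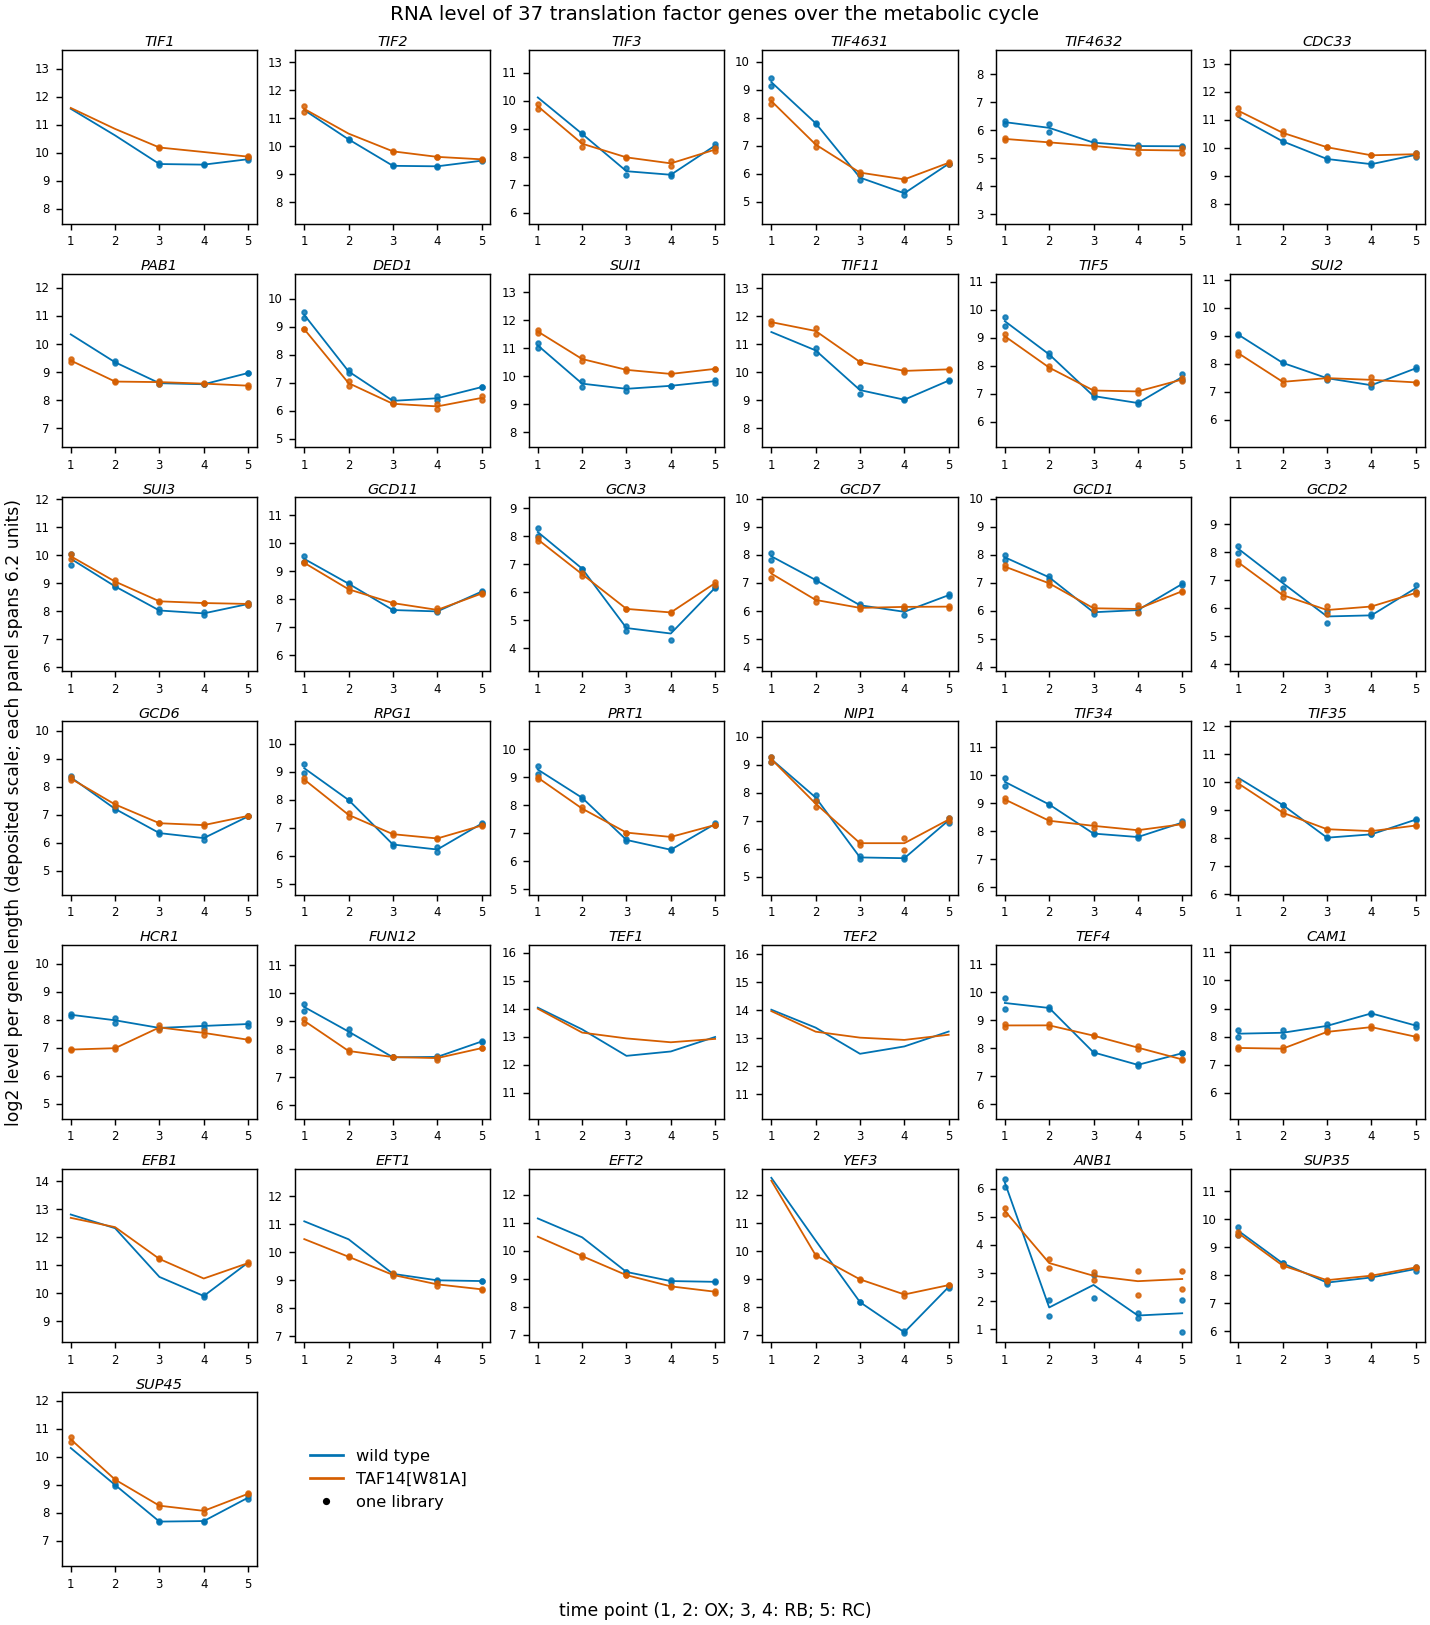
Log2 level per gene length (vertical axis, deposited scale, each panel spanning the same number of units) at the 5 time points for each of the 37 genes. Lines join the deposited group levels of wild type and mutant and points are single libraries where these could be separated. The level is highest at time point 1 for 36 of the 37 genes in wild type and for 34 in the mutant, and CAM1 is highest at time point 4 in both.

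Set against wild type at the same time point, most called translation factors were lower in the mutant in OX and higher in RB. At time point 1, 21 of 35 were lower and 4 higher, where 49.2% of all genes were called, 25.4% lower and 23.8% higher. At time point 2, 21 were lower and 7 higher (47.6% of all genes called, 23.9% lower and 23.7% higher). The direction was the other way at time point 3, with 19 higher and 1 lower (43.8% of all genes called, 25.8% higher and 18% lower), and at time point 4, with 20 higher and 4 lower (47.6% of all genes called, 25.9% higher and 21.7% lower). The median differences were -0.33, -0.39, 0.27 and 0.34 at these points, against medians of at most 0.022 over all genes. In RC 10 were lower and 3 higher (30.4% of all genes called, 15.2% lower and 15.1% higher), and 8 in all were called without library 1 of the mutant at that point. Of the 25, 28, 20, 24 and 13 calls at time points 1 to 5, 18, 22, 16, 18 and 7 were also made without each single library in turn. A pair that could not be separated stayed whole in these fits. At time point 1 this held for the wild-type pairs of PAB1, TIF11, EFT1, EFT2 and SUP45, whose calls are among those kept. For EFT1 and EFT2 there, and for TIF1 at time point 2, the pairs of both genotypes stayed whole, so these fits could not change their differences. Some pairs at later points also stayed whole, such as that of EFB1 in wild type at 3 and those of EFB1 and TIF1 in the mutant at 4. Upper-quartile scaling gave 23 higher and 1 lower at time point 4 and 3 higher and 8 lower at time point 5, while the share of higher calls over all genes went from 54.4% to 65.4% and from 49.9% to 62.8%.

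The genotype difference depended on time for 31 of the 35 genes, beside 48.1% of all genes, by an F test of the interaction. DED1, SUI3, CAM1 and SUP35 were not called (adjusted p = 0.12, 0.15, 0.11 and 0.40). A call below wild type at an OX point together with one above it at an RB point was held by 11 of 35 (RPG1, PRT1, TIF34, TIF35, GCD11, TIF3, TIF4631, TIF5, TEF4, YEF3 and ANB1), and by 6.78% of all genes. For 4 of them, GCD11, ANB1, TIF3 and TIF34, each call on one side of the pattern was lost in some fit that left out a library; the values of ANB1, TIF3 and TIF34 stand with those genes. The OX call of GCD11 (-0.20 at time point 2) was -0.18 without library 1 of wild type and -0.15 without library 2 of the mutant. The reverse order was held by 0 of 35 and by 4.1% of all genes. A further 11 were higher at 1 or more points and lower at none, as were 37.7% of all genes. Among them SUI1 and TIF11 were higher at all 5, beside 4.19% of all genes. Another 12 were lower at 1 or more and higher at none, as were 32.5% of all genes. CAM1 among them was lower at all 5, beside 4.72% of all genes. Only SUP35 was called at no time point, as were 18.1% of all genes. In the mean of the 5 differences 13 genes were higher and 13 lower (69.9% of all genes called, 38% higher and 31.9% lower), with a median of -0.0465.

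**Figure D2:**
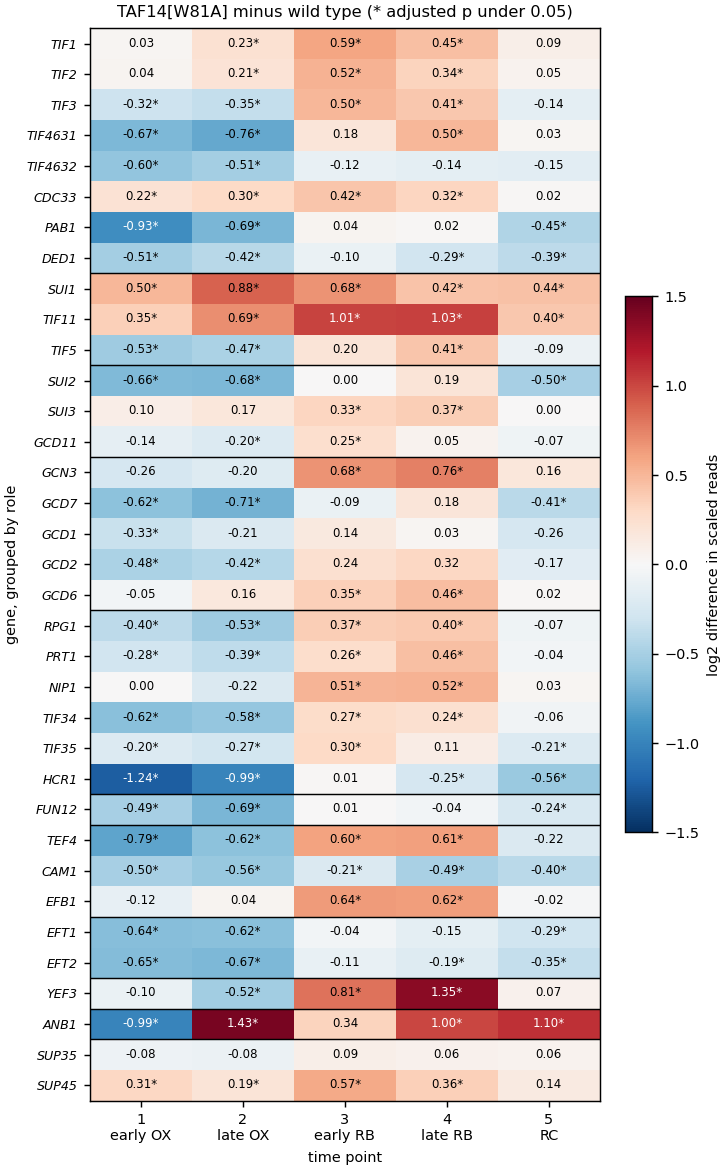
Log2 difference between mutant and wild type (colour and printed value) for 35 genes, grouped by role, at the 5 time points. An asterisk marks an adjusted p under 0.05; the OX columns are mostly blue, with 21 genes lower at each point, and the RB columns mostly red, with 19 and 20 higher.

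The mutant's cycle was correspondingly flatter. The deposited level ranged over 2.13 log2 units in the median wild-type gene and over 1.70 in the mutant, and the range was smaller in the mutant for 35 of 37 genes. Over the 6008 genes of the table the range was smaller in the mutant for 73.1%, with medians of 1.33 and 1.14. Without time point 1, a choice made after seeing how far apart its wild-type libraries stood, the range was smaller for 34 of 37 genes and for 71.4% of all. Relative to wild type the range of the mutant was smallest for TIF4632 (0.86 and 0.41) and PAB1 (1.78 and 0.90), and YEF3 had the widest in both genotypes, 5.51 and 4.06. HCR1 and CAM1 were the exceptions, with ranges of 0.47 and 0.72 in wild type and 0.79 and 0.77 in the mutant. These ranges are descriptions without a test.

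**Figure D3:**
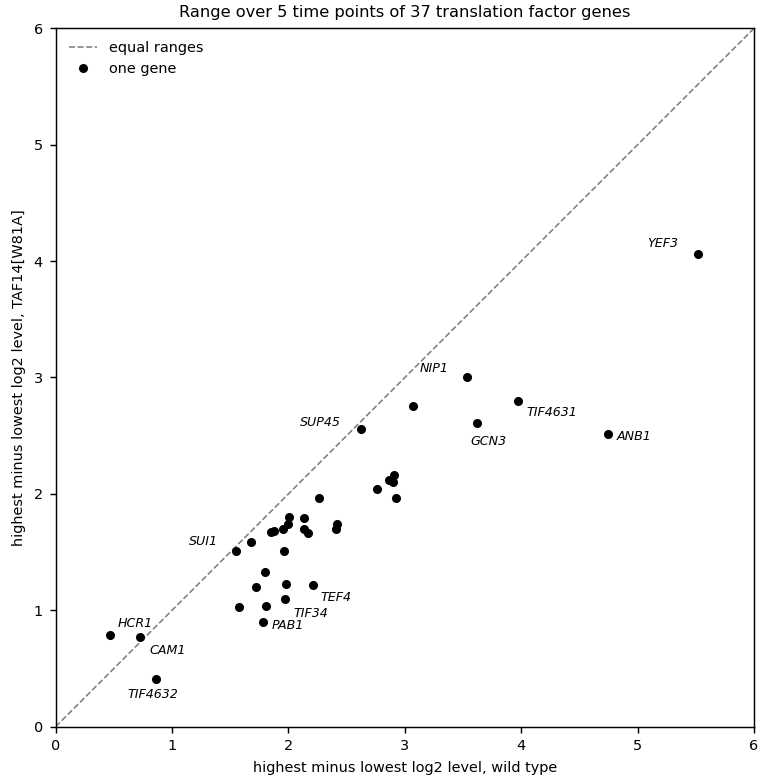
Difference between the highest and lowest deposited log2 level over the 5 time points, wild type (horizontal) against mutant (vertical), with 1 point per gene and a dashed line of equal ranges. Of the 37 genes 35 lie under the line, and HCR1 and CAM1 lie above it.

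Among the eIF4F genes the scaffold subunits were called lower in the mutant in OX, and the cap-binding and helicase subunits were not. TIF4631 (eIF4G1, YGR162W, chromosome VII, 824059 to 826917 on sacCer3) and TIF4632 (eIF4G2, YGL049C, chromosome VII, 406860 to 409604) encode alternative forms of the scaffold that joins the cap-binding protein to eIF4A. Wild-type TIF4631 stood at 9.13/9.41, 7.79/7.82, 5.94/5.78, 5.37/5.24 and 6.36/6.36, and the mutant at 8.51/8.68, 7.14/6.95, 6.01/6.08, 5.83/5.78 and 6.44/6.35. Its steps in wild type were -1.46 ± 0.093, -1.94 ± 0.093, -0.56 ± 0.093 and 1.05 ± 0.093, all called. Wild-type TIF4632 stood at 6.35/6.23, 5.95/6.21, 5.50/5.61, 5.48/5.39 and 5.40/5.45, and the mutant at 5.72/5.66, 5.54/5.59, 5.46/5.42, 5.19/5.39 and 5.36/5.19. The paralog began far lower and had a single called step, in which it fell by 0.52 ± 0.094 from time point 2 to 3. In late RB the scaffold genes had nearly the same level per length in wild type. In the mutant both were lower in OX with no overlap of libraries, TIF4631 with differences of -0.67 ± 0.093 (SE, adjusted p = 3.0e-05) and -0.76 ± 0.093 (SE, adjusted p = 9.9e-06), and TIF4632 with -0.60 ± 0.094 (SE, adjusted p = 8.8e-05) and -0.51 ± 0.094 (SE, adjusted p = 3.4e-04). At time point 4 TIF4631 was higher than wild type by 0.50 ± 0.093, with no overlap of libraries.

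CDC33 (eIF4E, the cap-binding protein) and the eIF4A helicase genes did not show that decrease. CDC33 was above wild type at time points 1 to 4, by 0.22, 0.30, 0.42 and 0.32, each ± 0.074; without library 2 of the mutant the first was 0.12 and not called. TIF1 and TIF2 encode the same eIF4A protein, so the counting could have moved reads between them and their values are uncertain as single genes. Wild-type TIF1 stood at mean 11.56, mean 10.61, 9.64/9.54, 9.55/9.59 and 9.73/9.80, and the mutant at mean 11.59, mean 10.85, 10.19/10.17, mean 10.02 and 9.88/9.83. Wild-type TIF2 stood at mean 11.29, 10.23/10.25, 9.31/9.29, 9.31/9.26 and 9.49/9.47, and the mutant at 11.23/11.42, mean 10.45, 9.80/9.84, 9.63/9.61 and 9.56/9.51. Both were higher in the mutant in RB, by 0.59 ± 0.073 and 0.45 ± 0.073 for TIF1 and 0.52 ± 0.069 and 0.34 ± 0.069 for TIF2, with no overlap of the libraries that could be compared. TIF3 (eIF4B, which stimulates eIF4A) was lower at time points 1 and 2 (-0.32 ± 0.091 and -0.35 ± 0.091) and higher at 3 and 4 (0.50 ± 0.091 and 0.41 ± 0.091); leaving out library 1 of the mutant gave -0.24 and -0.26 at the OX points, neither of them called.

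PAB1 (poly(A)-binding protein, YER165W, chromosome V, 510373 to 512106) had a much smaller OX peak in the mutant. Wild-type PAB1 stood at mean 10.34, 9.31/9.39, 8.56/8.64, 8.56/8.56 and 8.98/8.95, and the mutant at 9.35/9.47, 8.64/8.68, 8.69/8.59, 8.60/8.57 and 8.54/8.48. The mutant was lower, with differences of -0.93 ± 0.063 (SE, adjusted p = 5.3e-08) at time point 1, -0.69 ± 0.063 (SE, adjusted p = 1.2e-06) at 2 and -0.45 ± 0.063 (SE, adjusted p = 1.1e-04) at 5. In RB the differences were 0.039 and 0.022, and neither was called. After time point 2 none of its steps in the mutant was called. DED1, a DEAD-box helicase that helps scanning through structured leaders, fell the furthest of the group from time point 1 to 2, with changes of -2.01 ± 0.094 in wild type and -1.93 ± 0.094 in the mutant. Wild-type DED1 stood at 9.29/9.53, 7.45/7.34, 6.27/6.42, 6.36/6.51 and 6.85/6.83, and the mutant at 8.90/8.91, 7.06/6.89, 6.26/6.22, 6.24/6.05 and 6.38/6.52. No library of the mutant reached one of wild type at any point, and the mutant was called lower at time points 1 and 2 (-0.51 ± 0.094 and -0.42 ± 0.094), 4 (-0.29 ± 0.094) and 5 (-0.39 ± 0.094). The last pair was less firm: the call at 4 was lost without library 2 of either genotype (-0.22 and -0.19) and under upper-quartile scaling (-0.21), and that at 5 without library 1 of the mutant (-0.32).

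Among the start codon selection factors, the small ones were above wild type throughout. TIF11 (eIF1A, YMR260C, chromosome XIII, 789378 to 789839) and SUI1 (eIF1, YNL244C, chromosome XIV, 187170 to 187496), small proteins that keep the scanning ribosome open until the start codon is met, were higher in the mutant at every time point. Wild-type TIF11 stood at mean 11.44, 10.69/10.86, 9.48/9.23, 9.04/8.998 and 9.67/9.73, and the mutant at 11.73/11.84, 11.38/11.56, 10.38/10.35, 10.07/10.03 and 10.12/10.09. Its differences were 0.35 ± 0.085, 0.69 ± 0.085, 1.01 ± 0.085, 1.03 ± 0.085 and 0.40 ± 0.085, largest in RB. The first rests on a wild-type pair that could not be separated. The authors' deposited log2 fold change there is 0.323, and their adjusted p is not under 0.05. Wild-type SUI1 stood at 10.99/11.20, 9.83/9.62, 9.63/9.46, 9.65/9.65 and 9.77/9.87, and the mutant at 11.52/11.66, 10.54/10.67, 10.17/10.27, 10.10/10.06 and 10.26/10.26. Its differences were 0.50 ± 0.087, 0.88 ± 0.087, 0.68 ± 0.087, 0.42 ± 0.087 and 0.44 ± 0.087, largest at time point 2. In SUI1 no library of the mutant overlapped wild type at any point, nor in TIF11 at time points 2 to 5. In wild type SUI1 fell once, by 1.36 ± 0.087 from time point 1 to 2, and no later step was called. TIF5 (eIF5, which triggers GTP hydrolysis on eIF2) did not follow them: it was lower at time points 1 and 2 (-0.53 ± 0.098 and -0.47 ± 0.098) and higher at 4 (0.41 ± 0.098).

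Subunits of eIF2, which carries the initiator tRNA, differed in their calls between mutant and wild type; they were not tested against each other. In wild type SUI2 (alpha), SUI3 (beta) and GCD11 (gamma) fell by similar amounts from time point 1 to 2 (-1.004 ± 0.080, -0.97 ± 0.100 and -0.88 ± 0.064), and all 3 rose in RC, though the rise of SUI3 (0.34 ± 0.100) was 0.28 and not called without library 2 of time point 4. Wild-type SUI2 stood at 9.01/9.06, 8.05/8.01, 7.55/7.41, 7.29/7.17 and 7.81/7.87, and the mutant at 8.32/8.42, 7.43/7.28, 7.51/7.47, 7.53/7.32 and 7.36/7.31. The mutant libraries lay under both wild-type libraries in OX and RC, with differences of -0.66 ± 0.080 (SE, adjusted p = 7.7e-06), -0.68 ± 0.080 (SE, adjusted p = 7.0e-06) and -0.50 ± 0.080 (SE, adjusted p = 2.5e-04) at time points 1, 2 and 5. The step of the mutant from time point 4 to 5 was -0.087 ± 0.080 and not called. SUI3 showed values of 0.099 ± 0.100 and 0.17 ± 0.100 in OX, not called, and was higher in RB by 0.33 ± 0.100 and 0.37 ± 0.100. Those RB calls did not hold without library 1 of wild type at time point 3 (0.27), library 1 of the mutant there (0.32) or library 2 of wild type at time point 4 (0.32). The differences of GCD11 lay between -0.20 and 0.25 at the 5 points.

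The 5 subunits of eIF2B, the exchange factor that reloads eIF2 with GTP, all fell from time point 1 to 2 and from 2 to 3 in both genotypes and all rose in RC in wild type. In the mutant the fall of GCD7 from 2 to 3 (-0.28) was not called without library 1 of either point (-0.22 and -0.23), nor that of GCD2 (-0.54) without library 2 of time point 3 (-0.40). GCN3 (alpha, the subunit that senses phosphorylated eIF2, YKR026C, chromosome XI, 488738 to 489655) moved the most. Wild-type GCN3 stood at 7.998/8.27, 6.84/6.83, 4.81/4.62, 4.72/4.29 and 6.18/6.13, and the mutant at 7.83/7.93, 6.70/6.58, 5.40/5.40, 5.25/5.30 and 6.38/6.26, with 78 and 51 reads in the wild-type libraries of time point 4. Its fall from time point 2 to 3 was -2.11 ± 0.13 in wild type and -1.23 ± 0.13 in the mutant, and the mutant was higher in RB by 0.68 ± 0.13 (SE, adjusted p = 3.6e-04) and 0.76 ± 0.13 (SE, adjusted p = 1.1e-04). GCD6 (epsilon, the catalytic subunit) was also higher there, by 0.35 ± 0.065 and 0.46 ± 0.065. GCD7 (beta) went the other way. Wild-type GCD7 stood at 7.84/8.06, 7.13/7.08, 6.16/6.25, 5.85/6.08 and 6.53/6.60, and the mutant at 7.19/7.47, 6.46/6.33, 6.06/6.16, 6.18/6.12 and 6.12/6.19. It was lower in OX with no overlap of libraries (-0.62 ± 0.10 and -0.71 ± 0.10) and in RC (-0.41 ± 0.10), the latter a call lost when library 2 was left out of wild type or library 1 out of the mutant (-0.37 and -0.37). GCD1 (gamma) and GCD2 (delta) had values of -0.33 and -0.48 at time point 1, each called, and -0.23 and -0.36, not called, without library 2 of wild type. The call of GCD1 was also lost without library 1 of the mutant (-0.28) and that of GCD2 without its library 2 (-0.44).

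In eIF3, the scaffold on which the initiation assembly forms, the core subunits shared the sequence of falls in wild type and HCR1 stayed nearly level. RPG1 (eIF3a), PRT1 (eIF3b), NIP1 (eIF3c), TIF34 (eIF3i) and TIF35 (eIF3g) all fell over the first 2 steps of wild type, with changes of -0.80 to -1.37 and then -1.04 to -2.14, and all rose in RC. Wild-type NIP1 stood at 9.12/9.29, 7.91/7.76, 5.75/5.64, 5.64/5.70 and 6.94/7.10, and the mutant at 9.12/9.29, 7.71/7.51, 6.16/6.25, 6.41/5.97 and 6.99/7.11. Its steps to time point 3 and to time point 5 in wild type (-2.14 ± 0.12 and 1.35 ± 0.12) were the largest of the core. In the mutant RPG1 was lower at time points 1 and 2 (-0.40 ± 0.092 and -0.53 ± 0.092) and higher at 3 and 4 (0.37 ± 0.092 and 0.40 ± 0.092), and PRT1, TIF34 and TIF35 had the same signs at these points. Without library 2 of wild type at time point 1, RPG1 had a difference of -0.23, still called. TIF34 had 0.27 and 0.24 in RB, called at both points; with 1 library left out the call was kept at 3 only when that was library 2 of the mutant and at 4 only when it was library 1 of wild type, and the differences that lost it ran from 0.19 to 0.28. PRT1 at time point 1 (-0.28) was -0.14 and not called without library 2 of wild type, and TIF35 there (-0.20) was -0.12 and not called without library 1 of the mutant. NIP1 was higher at time points 3 and 4 (0.51 ± 0.12 and 0.52 ± 0.12), the latter 0.30 and still called without library 1 of the mutant.

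HCR1 (eIF3j, a loosely held subunit also needed for ribosome recycling, YLR192C, chromosome XII, 538792 to 539589) had a small range in wild type and low OX levels in the mutant. Wild-type HCR1 stood at 8.14/8.21, 7.87/8.07, 7.71/7.70, 7.83/7.72 and 7.90/7.79, and the mutant at 6.93/6.93, 7.03/6.93, 7.82/7.61, 7.61/7.44 and 7.26/7.30. In OX the mutant libraries lay about 1 unit under wild type, with differences of -1.24 ± 0.088 (SE, adjusted p = 5.3e-08) and -0.99 ± 0.088 (SE, adjusted p = 6.5e-07), the largest decreases among the 35 genes at both points. The mutant then rose by 0.74 ± 0.088 into RB and met wild type at time point 3 (0.014 ± 0.088, libraries overlapping). In RC it was lower again (-0.56 ± 0.088). Over the first step of wild type HCR1 had a change of -0.20 ± 0.088 (adjusted p = 0.049), which was -0.23 and -0.17 without library 1 or 2 of time point 1 and -0.099 without library 1 of time point 2, not called in any of these fits. Without library 2 of time point 2 it was -0.30 and called, and it turned to 0.034 under upper-quartile scaling. At time point 4 it was called at -0.25 ± 0.088, but not when wild type lacked library 1 (-0.19) or the mutant library 2 (-0.16), nor under upper-quartile scaling (-0.17). In the authors' deposited table the log2 fold change of HCR1 is -1.13 at time point 1 and -0.951 at time point 2. FUN12 (eIF5B, the GTPase that joins the subunits) was lower in OX (-0.49 ± 0.081 and -0.69 ± 0.081), and its RB differences of 0.0095 and -0.043 were not called.

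The eEF1 genes held both the most abundant RNAs of the set and its counter-phase member. TEF1 and TEF2 encode the same eEF1A protein, so the counting could have shared reads between them and their values are uncertain as single genes. They had the highest levels per length, 14.04 and 14.01 in wild type at time point 1. Over time points 1 to 5 TEF1 had group levels of 14.04, 13.26, 12.32, 12.48 and 12.99 in wild type and 14.002, 13.15, 12.94, 12.80 and 12.92 in the mutant. TEF2 had 14.01, 13.37, 12.44, 12.70 and 13.23, and 13.96, 13.23, 13.01, 12.93 and 13.12. Mutant minus wild type was -0.038 and -0.11 in OX and 0.62 and 0.33 in RB for TEF1, and -0.050 and -0.14 in OX and 0.58 and 0.23 in RB for TEF2, with no library values and no test here. The authors' deposited log2 fold changes in RB are 0.593 and 0.316 for TEF1 and 0.546 and 0.221 for TEF2, each with their adjusted p under 0.05. Theirs was also under 0.05 for TEF2 at time points 2 and 5 (-0.149 and -0.127), and at no other point for either gene. EFB1 (eEF1B alpha, which recharges eEF1A with GTP) was next in level. Wild-type EFB1 stood at mean 12.81, mean 12.33, mean 10.59, 9.92/9.89 and mean 11.10, and the mutant at mean 12.69, mean 12.36, 11.24/11.21, mean 10.53 and 11.06/11.10, higher in RB by 0.64 ± 0.077 (SE, adjusted p = 1.2e-04) and 0.62 ± 0.077 (SE, adjusted p = 1.2e-04); the library spread behind these rests on 3 of the 10 groups.

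TEF4 and CAM1 encode alternative forms of the eEF1B gamma subunit, and their RNAs ran against each other in wild type. Wild-type TEF4 stood at 9.39/9.81, 9.49/9.39, 7.85/7.86, 7.37/7.44 and 7.81/7.83, and the mutant at 8.76/8.87, 8.87/8.76, 8.42/8.48, 8.07/7.98 and 7.58/7.62. It had a change of -0.16 ± 0.095 within OX, not called, then fell by 1.58 ± 0.095 into RB. No libraries of the genotypes overlapped at any point. The mutant began lower (-0.79 ± 0.095 and -0.62 ± 0.095 at time points 1 and 2), was higher in RB (0.60 ± 0.095 and 0.61 ± 0.095) and fell in RC by 0.42 where wild type rose by 0.42. Wild-type CAM1 (YPL048W, chromosome XVI, 464401 to 465648) stood at 7.97/8.22, 8.23/8.03, 8.32/8.44, 8.81/8.84 and 8.34/8.44, and the mutant at 7.57/7.61, 7.63/7.50, 8.18/8.15, 8.37/8.30 and 8.02/7.96. CAM1 was the only gene of the 37 that was lowest at time point 1 in wild type and highest in late RB. It rose from time point 3 to 4 by 0.45 ± 0.083 (SE, adjusted p = 4.0e-04) and fell by 0.43 ± 0.083 in RC. The step from 2 to 3 was 0.25 ± 0.083, and not called without library 2 of either point (0.15 and 0.19) or under upper-quartile scaling (0.16). TEF4 minus CAM1, on the deposited log2 scale per length, was 1.51 at time point 1 and -1.42 at time point 4 in wild type, and 1.22 and -0.31 in the mutant. The mutant also had its highest CAM1 level at time point 4, and at every point its libraries lay under those of wild type, with differences of -0.50 ± 0.083, -0.56 ± 0.083, -0.21 ± 0.083, -0.49 ± 0.083 and -0.40 ± 0.083. The third of these lost its call when library 2 was left out of wild type or either one out of the mutant, at -0.15, -0.23 and -0.20, and under upper-quartile and median-of-ratios scaling, at -0.18 and -0.21.

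Both copies of the eEF2 gene (the translocase) moved alike, and since EFT1 and EFT2 encode the same protein the counting could have shared reads between them. Wild-type EFT1 stood at mean 11.10, mean 10.46, 9.23/9.22, 9.01/8.98 and 8.96/8.98, and the mutant at mean 10.47, 9.86/9.82, 9.24/9.13, 8.80/8.90 and 8.66/8.69. Wild-type EFT2 stood at mean 11.15, mean 10.48, 9.23/9.26, 8.96/8.87 and 8.91/8.87, and the mutant at mean 10.50, 9.84/9.78, 9.13/9.12, 8.72/8.74 and 8.57/8.51. They were among the 7 of 35 genes without a called rise in RC: the wild-type step from time point 4 to 5 was -0.026 and -0.027, not called. In the mutant both were lower in OX, EFT1 with differences of -0.64 ± 0.071 and -0.62 ± 0.071 and EFT2 with -0.65 ± 0.069 and -0.67 ± 0.069, and in RC (-0.29 ± 0.071 and -0.35 ± 0.069). In RC the mutant libraries of both genes lay under those of wild type. Without library 1 of the mutant the RC difference of EFT1 was -0.28 and not called.

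YEF3 (eEF3, YLR249W, chromosome XII, 636780 to 639914) had the widest cycle of the set in both genotypes. Wild-type YEF3 stood at mean 12.61, mean 10.37, 8.18/8.17, 7.13/7.07 and 8.67/8.76, and the mutant at mean 12.51, 9.86/9.84, 8.98/8.99, 8.49/8.41 and 8.78/8.79. Both began at nearly the same level, and in late RB every mutant library stood more than 1 unit above those of wild type. The wild-type steps were -2.24 ± 0.073, -2.20 ± 0.073, -1.08 ± 0.073 and 1.62 ± 0.073, and the mutant steps -2.66 ± 0.073, -0.86 ± 0.073, -0.54 ± 0.073 and 0.33 ± 0.073. The differences were -0.52 ± 0.073 (SE, adjusted p = 7.7e-05) at time point 2, 0.81 ± 0.073 (SE, adjusted p = 1.4e-06) at 3 and 1.35 ± 0.073 (SE, adjusted p = 1.1e-08) at 4, with no overlap of libraries in RB, and its interaction had the smallest p of the set (1.3e-07). In RC the group levels were 8.72 and 8.78, and the difference was not called.

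Among the factors that act late in translation, ANB1 had few reads outside early OX. It encodes the eIF5A isoform known for its expression when oxygen is scarce; eIF5A helps ribosomes through poorly reacting residues. Wild-type ANB1 stood at 6.07/6.36, 1.45/2.03, 2.11/2.93, 1.39/1.57 and 2.02/0.89, and the mutant at 5.11/5.32, 3.19/3.50, 3.03/2.76, 2.20/3.08 and 2.42/3.08. The genotypes overlapped only at time point 3. The wild-type libraries held 87 and 100 reads at time point 1 and 2 to 11 at the others, and the mutant libraries 52 and 41 and then 6 to 21. From time point 1 to 2 the changes were -4.22 ± 0.38 in wild type and -1.80 ± 0.38 in the mutant, the only steps of ANB1 called. Its genotype differences were -0.99 ± 0.38, 1.43 ± 0.38, 0.34 ± 0.38, 1.002 ± 0.38 and 1.10 ± 0.38, the third not called. None of the 4 calls held without each library in turn: the first was lost without any of its 4 libraries (-0.84 to -1.13), the second without library 1 of wild type (1.18), the fourth without a wild-type library or the mutant's library 2 (0.61 to 1.07) and the last without library 2 of either genotype (0.65 and 0.80). A pseudocount of 5 gave 0.65 at time point 4 and 0.70, not called, at 5.

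Of the release factor genes, one was called higher in the mutant and the other was not. SUP45 (eRF1, which reads the stop codon) and SUP35 (eRF3, its GTPase partner) fell over the first 2 steps and rose in RC in both genotypes. Wild-type SUP45 stood at mean 10.31, 9.02/8.96, 7.69/7.68, 7.72/7.68 and 8.47/8.60, and the mutant at 10.52/10.71, 9.15/9.21, 8.20/8.30, 8.12/8.003 and 8.65/8.69. It was higher in the mutant by 0.31 ± 0.071 at time point 1, 0.57 ± 0.071 (SE, adjusted p = 1.2e-05) at 3 and 0.36 ± 0.071 (SE, adjusted p = 6.2e-04) at 4, and by 0.19 ± 0.071 at 2, where leaving out any of the 4 libraries ended the call (0.16 to 0.22). At time point 1 the wild-type pair of SUP45 could not be separated. The authors' deposited log2 fold change there is 0.283, and their adjusted p is not under 0.05. Wild-type SUP35 stood at 9.44/9.70, 8.42/8.42, 7.77/7.69, 7.93/7.90 and 8.15/8.28, and the mutant at 9.44/9.55, 8.37/8.31, 7.83/7.80, 7.99/7.97 and 8.28/8.26. Its 5 differences lay between -0.083 and 0.087 with an SE of 0.074 each, none called, and the libraries of the genotypes overlapped at time points 1 and 5.

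Other genes of translation were counted from lists of regulators, accessory factors, termination and decay factors, enzymes that modify the factors and chaperones of the new chain. Of 57 listed genes 56 were in the table and 54 were tested. In wild type 44 of the 54 fell and 5 rose from time point 1 to 2, and 42 fell and 6 rose from 2 to 3. Compared with wild type, the mutant was lower for 21 of them and higher for 6 at time point 1 and higher for 31 and lower for 5 at time point 3, on the backgrounds given above. Of 7 chaperone genes tested, 0, 4, 6, 7 and 2 were higher in the mutant at time points 1 to 5 and 2, 1, 0, 0 and 0 lower. Of 13 modifying enzymes, 2, 0, 8, 7 and 2 were higher and 4, 4, 0, 0 and 0 lower. Of all genes, 23.8%, 23.7%, 25.8%, 25.9% and 15.1% were higher at these points and 25.4%, 23.9%, 18%, 21.7% and 15.2% lower. The binding proteins of eIF4E moved in opposite senses. CAF20, which competes with eIF4G for eIF4E, was higher in the mutant by 0.62 ± 0.086 (SE, adjusted p = 7.3e-06) in the mean of the 5 differences, while EAP1, the other such protein on the list, was lower with -0.78 ± 0.048 (SE, adjusted p = 8.3e-10). Wild-type EAP1 stood at 5.37/5.34, 5.65/5.92, 6.01/6.11, 6.13/6.23 and 5.99/6.08, and the mutant at 4.61/4.45, 5.02/4.80, 5.56/5.47, 5.53/5.50 and 4.94/5.14, with every mutant library under both wild-type libraries of its time point. PBP1, a binding partner of Pab1p, was lower (-0.45 ± 0.025), as PAB1 was (-0.40 ± 0.028).

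The cytosolic ribosomal protein genes are given beside these as the other growth genes, with 128 of 133 tested. Their wild-type medians were -0.71, -1.91, -0.59 and 1.19 over the 4 steps, where the translation factors had -0.996, -1.05, -0.12 and 0.55. Their differences between mutant and wild type had medians of 0.11, 0.27, 0.94, 1.03 and 0.35 at time points 1 to 5, where the factors had -0.33, -0.39, 0.27, 0.34 and -0.0688. In OX the medians had opposite signs, and in RB both were above 0. Of the ribosomal protein genes 35, 70, 124, 126 and 89 were higher at time points 1 to 5, where 23.8%, 23.7%, 25.8%, 25.9% and 15.1% of all genes were. Lower were 22, 22, 1, 0 and 2 of them, where 25.4%, 23.9%, 18%, 21.7% and 15.2% of all genes were. No test of the difference between the lists was made.

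Gene length moved with the genotype difference. TIF11, SUI1 and ANB1, the genes with the 3 highest mean differences, have counted lengths of 462, 327 and 474 bases. Across the 35 genes the Spearman rho of length with the difference was -0.19, -0.46, -0.35, -0.21 and -0.19 at time points 1 to 5, and -0.26, -0.35, -0.26, -0.15 and -0.21 across all 5970 tested genes. The genes share the same libraries and are not independent, and the values are given as a description. The part of length in the results above was not tested.

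H3K9ac, a mark found at the starts of active genes, was low at most of these genes in RB, and high at CAM1. The deposited signal per gene and position bin was averaged over bins 7 to 15, around the first maximum of the mean profile (bin 11); where the bins lie in the gene and what the scale is are not given in the sources used here. The median signal of the 37 genes was 0.647 at time point 3 and 0.629 at time point 4, against 0.922 and 0.838 over 6008 genes, and 32 and 31 of the 37 lay under the median of all genes. Between the time points 25 of the 37 declined, as did 66.2% of all genes. CAM1, the gene whose RNA peaked in RB, had the highest signal of the set, 2.12 at time point 3 and 2.54 at 4, at percentiles 98.7 and 99.5 of all genes. EFT2 was next, with 1.41 and 1.36, while its copy EFT1 had 0.973 and 0.978. The lowest at time point 3 was PRT1, with 0.387 and then 0.392. TEF4, the counterpart of CAM1, had 0.644 and 0.496. EFB1 declined the most, from 1.03 to 0.601. With 1 library per time point these values have no replicate check and no test.

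**Figure D4:**
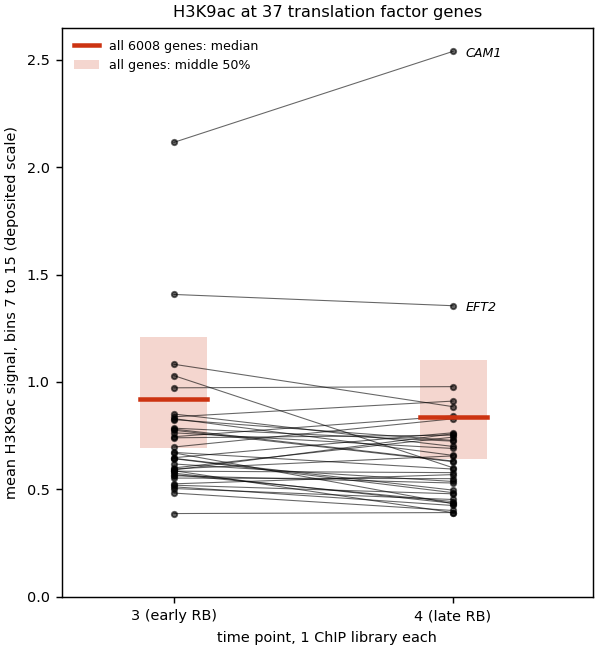
Mean H3K9ac signal over bins 7 to 15 (vertical axis, deposited scale) at time points 3 and 4 for 37 genes in CEN.PK, with a line per gene and 1 ChIP library per time point. Red bars and boxes give the median and the middle 50% of all 6008 genes; CAM1 stands highest, and 32 and 31 genes lie under the median.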

How the data were processed

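RNA was measured in 20 libraries, 2 in each of 10 groups of genotype and time point, and H3K9ac by ChIP in 2 libraries of CEN.PK. The RNA libraries were made with a directional kit, per the labels' protocols; whether strand was used in counting, how reads of paralogs were assigned, and the aligner's settings are not given in the sources used here. BWA, DESeq2, MACS2, deepTools and the sacCer3 build are named, with no version or role, per the submitters' processing notes.

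The authors deposited 1 log2 level per gene and group, with their log2 fold changes and adjusted p-values between genotypes. The authors deposited the H3K9ac signal per gene and position bin, without its scale. Of its 1048575 data lines, 281351 repeats and 344 with a shifted field were left out. Bins after 57 were not complete at both time points and were not used.

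No library column was used, because the table holds group levels. A deposited level, made linear and multiplied by the gene's length, adds up the whole reads of both libraries after weighting each library by its own constant; reads were recovered to within 1.15 times the rounding of the deposited values. Lengths were those of RefSeq (assembly R64) for 5438 genes that came out whole, and were searched for 548 others, EFB1 and TEF4 among them; with lengths shuffled among genes 1.06% came out whole. Of 5970 genes tested, 5429 had a single solution in all 10 groups. A group with several solutions entered by its mean and added nothing to the spread, and its libraries could not be left out. The 20 libraries carry the numbers 1 and 2, which are not the replicate letters. Log2(scaled reads + 1), on the authors' scaling, was fitted over 10 group means with limma 3.58.1 (trend, two-sided) in R 4.3.3, with Benjamini-Hochberg adjustment over 5970 genes and a threshold of 0.05. Depth was 2019155 to 3743224 reads per library, and SEs cover the spread between the 2 libraries of a group. Recovery and fit were tested on simulated data.

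The genes and lists were chosen with earlier results of these data known. All genes of the set may be named; library values are given for the 3 highest and 3 lowest called changes of each comparison and for paralog pairs, and at most 3 called genes of each other list are named. Alternatives were other scalings, a pseudocount of 5, a minimum mean of 10 scaled reads, genes solved uniquely in every group, each library left out, no time point 1, and the authors' deposited adjusted p.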

Additional observations from a re-analysis of the deposited data

Results flagged for a closer look

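Genotype effects that differed between time points were found for 31 of the 35 tested genes, by limma's F test of genotype by time with Benjamini-Hochberg adjustment over 5970 genes, where 48.1% of all genes were also called. The difference itself was tested in each case. Among the eIF4F genes, PAB1 and eIF4B the adjusted p was 0.0034 for TIF1, 0.0036 for TIF2, 7.4e-05 for TIF3, 3.0e-06 for TIF4631, 0.011 for TIF4632, 0.043 for CDC33 and 1.1e-06 for PAB1. Among the start codon factors and eIF5B it was 0.021 for SUI1, 3.9e-04 for TIF11, 9.9e-05 for TIF5 and 3.5e-04 for FUN12. For eIF2 and eIF2B it was 1.5e-05 for SUI2, 0.0045 for GCD11, 2.8e-04 for GCN3, 5.0e-04 for GCD7, 0.037 for GCD1, 0.0056 for GCD2 and 9.2e-04 for GCD6. In eIF3 it was 3.5e-05 for RPG1, 3.2e-05 for PRT1, 0.0038 for NIP1, 1.2e-05 for TIF34, 2.0e-04 for TIF35 and 3.2e-06 for HCR1. For the elongation factors it was 5.5e-07 for TEF4, 5.6e-04 for EFB1, 5.9e-04 for EFT1, 7.0e-04 for EFT2 and 1.3e-07 for YEF3. ANB1 had 0.0086 and SUP45 0.017.

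The genes with the smallest values differ in the direction of the change with time. YEF3 and TEF4 were below wild type late in OX and above it in RB, whereas PAB1 and HCR1 were below wild type in OX and were called above it at no point. With 2 libraries per group no test for a single outlying library was possible within a group.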

How the results depend on the processing

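For single genes the alternatives were the scalings, the pseudocount, the minimum of reads and the uniquely solved genes. Each library was also left out, except for the mean of the 5 differences. Where a pair could not be separated, leaving out its library left the change of that gene as it was, and such fits are counted too. Over the 14 signed comparisons, 2633 called values of single genes kept their direction and their side of the threshold and 133 kept their direction but lost the call. One reversed: HCR1 between time points 1 and 2 of wild type was 0.034 (adjusted p = 0.74) under upper-quartile scaling. Restricting the fit to uniquely solved genes leaves 23 of the factors, so their counts of calls were lower by construction: 23 and 23 over the wild-type and mutant cycles, 20, 21 and 19 for the wild-type steps to time points 2, 3 and 5, 19, 19 and 2 for the mutant steps to 2, 3 and 4, and 17, 11, 15, 8, 16 and 19 for the genotype difference at time points 2, 3, 4 and 5, its mean and the interaction. Leaving out each library in turn gave 1079 to 1251 genes and 8 to 11 factors for the genotype difference at time point 5, and 813 to 1055 genes and 5 to 8 factors for the mutant step from 3 to 4. At time point 1, where the wild-type libraries stood apart, the authors' deposited adjusted p called 806 genes and 17 factors, against 2938 and 25 here; the cause was not tested. Averaged over the 57 bins complete at both time points, of 70 at time point 3, the median H3K9ac signal of the set was 0.682 and 0.686 at time points 3 and 4. Its median difference was -0.0104 against -0.0605 in bins 7 to 15, and the cause was not tested. Depth limits ANB1, with fewer than 25 reads per library after time point 1. No paired analysis was possible because the table holds group levels and the recovered libraries carry no replicate letters. Promoter sequence was not used here.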
